A study of Mus musculus with 16 samples.

Results

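The Bcl2 family sets the threshold for the mitochondrial route of apoptosis. Its anti-apoptotic proteins, Bcl2, Bcl2l1 (Bcl-xL) and Mcl1, hold the effectors Bax and Bak1 in check at the outer mitochondrial membrane, and the BH3-only proteins Bcl2l11 (Bim), Bbc3 (Puma), Pmaip1 (Noxa), Bmf and Hrk (Harakiri) bind and neutralise the anti-apoptotic proteins or engage the effectors directly. Sympathetic neurons that lose nerve growth factor die by this route, and MYC proteins are known to lower its threshold. These 10 genes were taken by symbol from the tables of 24411 mouse genes, by a rule with no threshold on a measured value. All 10 passed the filter on low counts, as did 16665 genes in all.

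RNA-Seq was done on 16 mouse libraries, and the question is how these cell death genes stood in ganglia and tumors that differ in the MYCN transgene and in Runx1t1, a transcriptional corepressor. The 12 ganglion libraries came from celiac ganglia, a sympathetic ganglion of the abdomen, of 2-week-old mice, and the other 4 from fully developed tumors. Th-MYCN mice carry human MYCN behind the Th promoter, which drives it in neuroectodermal cells; the MYCN groups were homozygous for it. The Runx1t1 het groups come from a knockout line and keep 1 functional allele. The 5 groups were transgene-free ganglia with wild-type Runx1t1 (n = 4), transgene-free ganglia labelled Runx1t1 het (n = 3), MYCN ganglia with wild-type Runx1t1 (n = 3), MYCN ganglia labelled Runx1t1 het (n = 2) and MYCN tumors with wild-type Runx1t1 (n = 4). They are called transgene-free wild-type, transgene-free het, MYCN wild-type, MYCN het and tumor here. The tumors are older than the ganglia by an age not given in the labels, so age and tumor cannot be told apart, and human MYCN itself has no row in the mouse tables.

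Total counts ran from 10692299 to 38618757 per library, and both MYCN het libraries were among the 6 ganglia under 20000000. Runx1t1 RNA did not check the het labels: it was at 4.36 to 6.28 TPM in transgene-free het and 2.78 to 4.41 TPM in transgene-free wild-type ganglia, 8.83 and 16.9 TPM in MYCN het, 7.9 to 70.3 TPM in MYCN wild-type ganglia and 29.5 to 55.8 TPM in tumors. All 12 sympathetic neuron markers examined, Th and Dbh among them, had TPM above 0 in every library, with a sum of 8269 to 24398 TPM in ganglia and 2527 to 3836 TPM in tumors. The 7 glial markers summed to 475 to 1960 TPM in ganglia and 12.9 to 20.1 TPM in tumors. Transgene-free wild-type replicate 2 stood apart: its 8 lymphocyte markers summed to 829 TPM, against 0.56 to 7.98 TPM in the other 15 libraries, with Cd4 at 101 TPM and Cd3e at 75.5 TPM. Its 6 myeloid markers summed to 2087 TPM, against 31.4 to 246 TPM in the other ganglia and 224 to 698 TPM in tumors. The 5 fibroblast markers summed to 537 to 4369 TPM in ganglia and 99.5 to 299 TPM in tumors. Values without this library are given beside results that it moved.

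The sequences just upstream of 3 members are shown because these genes had the largest called differences between tumors and transgene-free wild-type ganglia: Bax and Hrk were higher in tumors than in transgene-free ganglia, and Bcl2 was lower. Each line gives the 250 bases before the RefSeq start site (GRCm38.p6), 5′ to 3′ on the strand of the gene, at chr7:45466899-45467148 (minus strand) for Bax, chr1:106714291-106714540 (minus strand) for Bcl2 and chr5:118169514-118169763 (plus strand) for Hrk. Capitals mark CACGTG, the E-box that MYC and MAX bind.
Bax: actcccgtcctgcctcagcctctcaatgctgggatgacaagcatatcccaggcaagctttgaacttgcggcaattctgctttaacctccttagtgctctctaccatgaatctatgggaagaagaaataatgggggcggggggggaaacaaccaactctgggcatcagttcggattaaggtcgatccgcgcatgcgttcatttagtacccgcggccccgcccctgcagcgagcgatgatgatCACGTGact
Bcl2: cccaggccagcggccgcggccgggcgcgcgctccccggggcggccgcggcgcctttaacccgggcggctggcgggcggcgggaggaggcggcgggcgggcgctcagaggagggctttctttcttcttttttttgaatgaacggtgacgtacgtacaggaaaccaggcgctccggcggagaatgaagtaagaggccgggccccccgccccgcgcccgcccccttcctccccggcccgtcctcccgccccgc
Hrk: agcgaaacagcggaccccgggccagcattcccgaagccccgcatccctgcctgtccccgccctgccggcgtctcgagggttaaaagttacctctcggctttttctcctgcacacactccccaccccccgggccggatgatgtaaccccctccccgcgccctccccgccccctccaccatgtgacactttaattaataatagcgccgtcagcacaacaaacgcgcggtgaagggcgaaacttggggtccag

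The Bax window held CACGTG at position −9, counting the last base shown as −1, and again at position 36 after the start site. A Bbc3 start site on chromosome 7 held the same letters at position −64, shown here in the 30 bases of chr7:16310355-16310384 (plus strand).
Bbc3: gcggggcgggcgCACGTGgcggcgtcgagg

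Of 32851 RefSeq windows of the same kind (250 bases before to 50 after a start site), 7.15% held CACGTG on either strand, and 2 of the 16 windows of 9 members did. The FOXO motif GTAAACA, in 3.65% of all windows, stood in a Bcl2l11 window at position −227 and in a Bbc3 window at position −167, and the E2F motif TTTCGCGC, in 0.323% of all windows, stood in a Bcl2l1 window at position −145. No window of a member held the AP-1 motif TGACTCA (5.2% of all windows) or the CRE motif TGACGTCA (1.79%), and those of Bcl2 and Hrk held none of the 5 motifs. These are matches of letters, not measured binding.

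Positions are those of GENCODE vM21 (GRCm38). Bcl2 spans chr1:106538178-106714274, Bcl2l1 chr2:152780668-152831728, Bcl2l11 chr2:128126038-128162547, Bmf chr2:118528757-118549687, Mcl1 chr3:95658788-95663176, Hrk chr5:118164648-118189478, Bbc3 chr7:16308393-16318205, Bax chr7:45461697-45466898 and Bak1 chr17:27019810-27029009. Bak1 overlaps Ggnbp1 on the opposite strand, which had 7 to 143 counts per library, and Bcl2 overlaps the antisense gene D630008O14Rik. Whether the counting used the strand is not given in the sources used here, so reads of such pairs may be mixed. On the same strand, Bcl2 overlaps Gm37053 and Mir3473f, and Bax overlaps Gm45808. Strand alone could not separate the reads of these pairs.

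Among the anti-apoptotic genes, the order of mean levels differed between ganglia and tumors. TPM, which corrects for transcript length, is used wherever genes are compared with each other. In all 4 ganglion groups Bcl2l1 had the highest mean of the 10 genes, from 94.1 ± 8.62 TPM (SD, n = 3) in MYCN wild-type to 130 ± 15.4 TPM (SD, n = 2) in MYCN het ganglia, followed by Mcl1, Bax and Bcl2. In tumors Bax stood first at 103 ± 15.8 TPM (SD, n = 4), followed by Mcl1 at 88.3 ± 10.4 TPM and Bcl2l1 at 49.8 ± 3.61 TPM, and Bcl2 took the ninth place at 4.09 ± 1.33 TPM. The ranges of Bax and Mcl1 overlapped in tumors, whereas each tumor had more Mcl1 than any tumor had Bcl2l1. Mcl1 also stood above Bcl2l1 in some ganglia: MYCN wild-type replicates 1 and 4 and transgene-free wild-type replicate 2. The plot of TPM by library shows these levels.

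**Figure D1:**
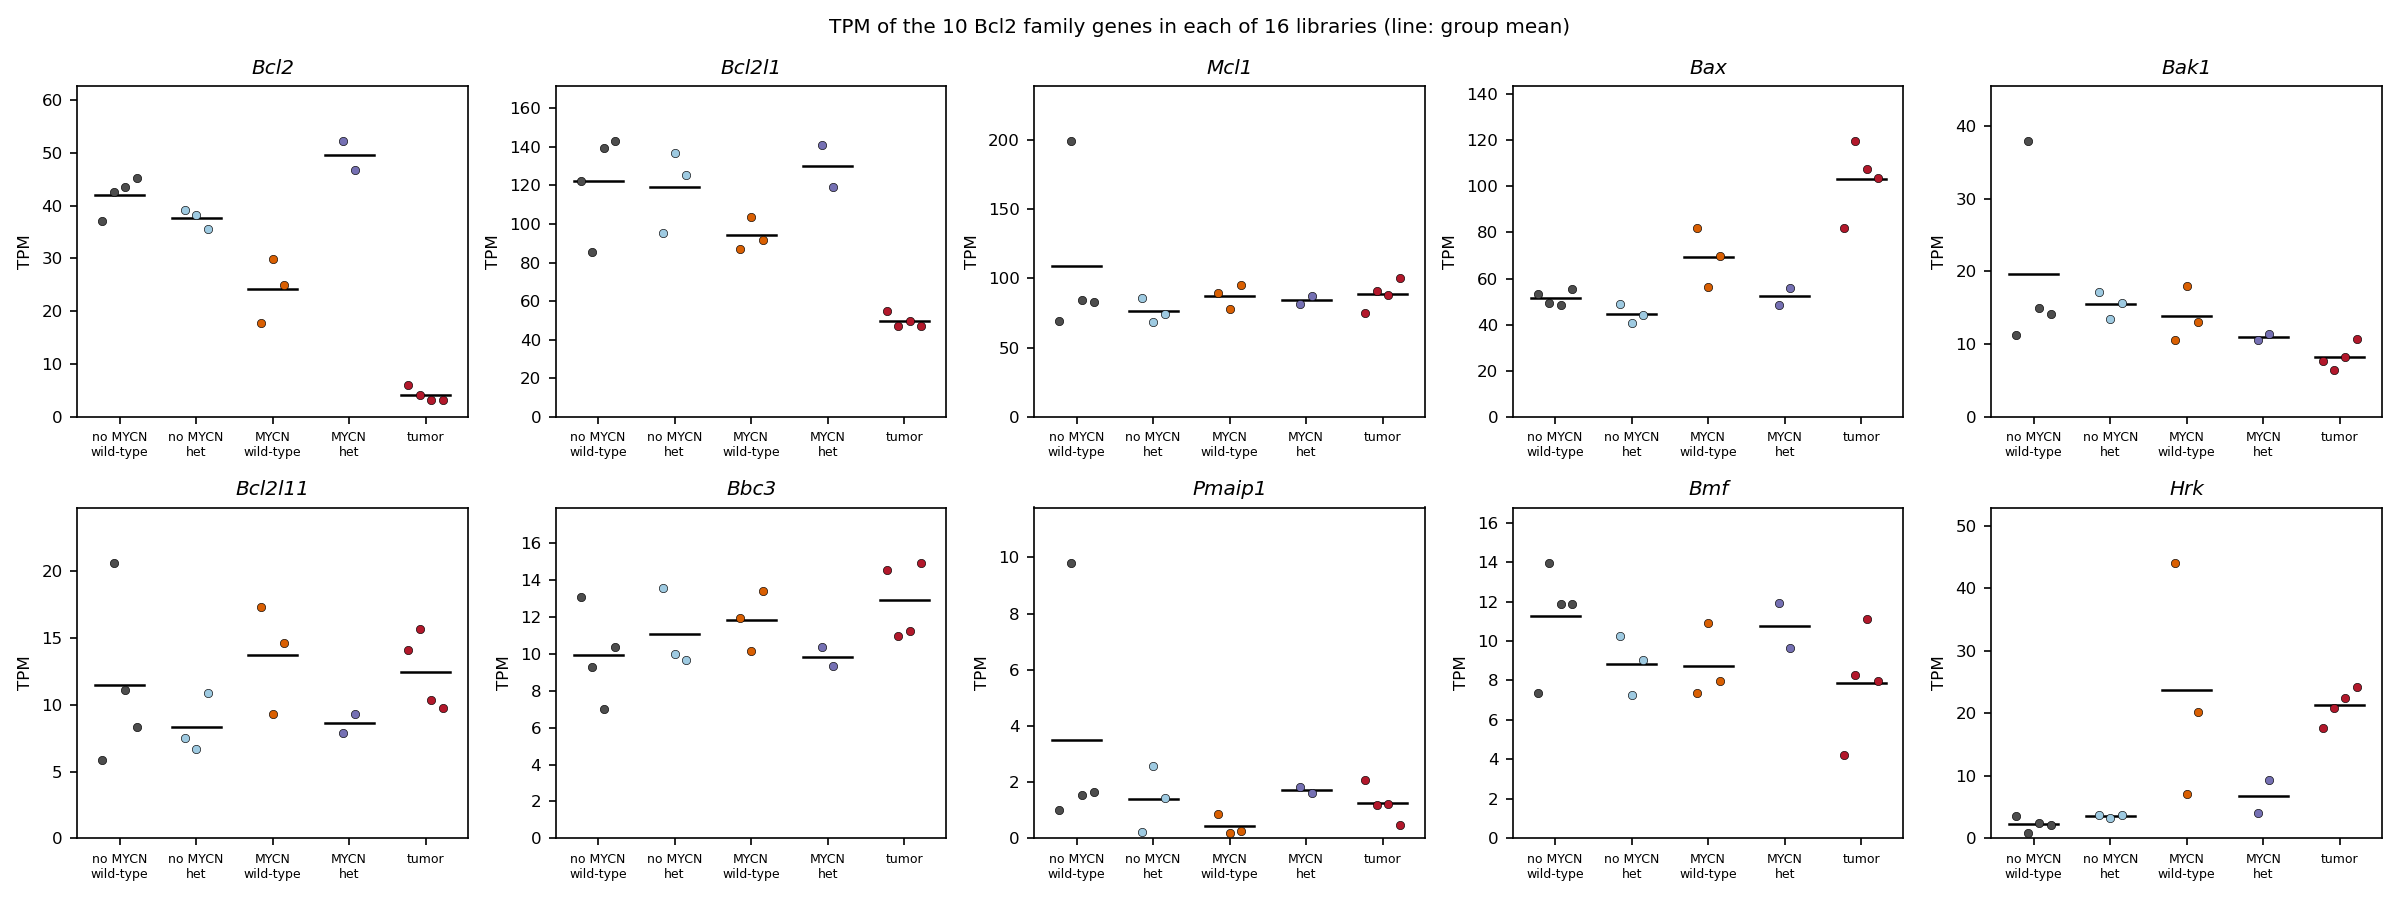
TPM of each of the 10 genes (vertical axes, each starting at 0) in the 16 libraries, grouped on the horizontal axis by transgene, Runx1t1 label and tissue; points are libraries and lines group means. Bcl2 is between 3.12 and 5.97 TPM in the 4 tumors and at least 17.8 TPM in every ganglion, and replicate 2 of the transgene-free wild-type ganglia is the highest point for Mcl1, Bak1, Bcl2l11 and Pmaip1.

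Bcl2, the founding member of the family, which holds Bax and Bak1 in check, was the member that differed most clearly between groups. It was at 37.1, 42.6, 43.6 and 45.2 TPM in transgene-free wild-type, 39.2, 38.2 and 35.6 TPM in transgene-free het, 17.8, 29.9 and 25.0 TPM in MYCN wild-type, 52.2 and 46.8 TPM in MYCN het ganglia, and 5.97, 4.12, 3.12 and 3.16 TPM in tumors. The tumors overlapped with no ganglion, the 3 MYCN wild-type ganglia lay between the tumors and every other ganglion, and both MYCN het ganglia lay above all others. Between tumors and MYCN wild-type ganglia the fitted log2 fold change was −2.23 (SE 0.204, edgeR adjusted p = 6.5e-06), 4.70-fold lower in tumors. Against transgene-free wild-type ganglia it was −2.99 (SE 0.201, edgeR adjusted p = 3.42e-07). Both calls held under all 16 fits that left out a library and all 10 other alternatives. In tissue RNA of this kind, fewer cells that express a gene and less RNA per cell cannot be told apart, and the sums of sympathetic neuron, glial and fibroblast markers, given above, were also lower in tumors; their part in the difference was not tested.

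Bcl2l1, the anti-apoptotic member known as Bcl-xL, had a smaller difference in the same direction. Its level was 54.9, 47.3, 49.8 and 47.2 TPM in tumors against 86.9, 104 and 91.7 TPM in MYCN wild-type ganglia and 122, 85.7, 139 and 143 TPM in transgene-free wild-type ganglia. No tumor overlapped with a ganglion of either group. The log2 fold change was −0.48 (SE 0.152, edgeR adjusted p = 0.0243) from MYCN wild-type ganglia and −0.80 (SE 0.142, edgeR adjusted p = 0.000319) from transgene-free wild-type ganglia. The first of these calls was lost without tumor replicate 3 (edgeR adjusted p = 0.0531), without tumor replicate 4 (0.0603), without MYCN wild-type replicate 3 (0.0912) and with a term for sex read from the Y-linked gene Ddx3y (0.0594). That call was also lost with a block for replicate number (edgeR adjusted p = 0.0612). The second call held under every alternative and without each library.

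Mcl1, a short-lived anti-apoptotic protein, was called in none of the 7 comparisons by edgeR with all libraries. It ranged from 74.8 to 100.0 TPM in tumors and from 68.3 to 95.1 TPM in every ganglion apart from transgene-free wild-type replicate 2, where it was 199 TPM. Without that library the group's mean was 78.8 ± 8.63 TPM (SD, n = 3), and Mcl1 was then called higher in tumors than in transgene-free wild-type ganglia, with a log2 fold change of 0.63 (edgeR adjusted p = 0.00213) in place of 0.09 (edgeR adjusted p = 0.811). With all libraries it was −0.17 by limma on log2(TPM + 0.1), the lowest of its alternatives, and not called. Between tumors and MYCN wild-type ganglia it was 0.39 (SE 0.316, edgeR adjusted p = 0.358), and 0.40 with an adjusted p of 0.0384 in the fit without that library, which is in neither group but enters the shared estimate of the spread. The calls for Mcl1 thus turned on 1 library.

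The summed TPM of these 3 anti-apoptotic genes was 142 ± 6.09 (SD, n = 4) in tumors, 206 ± 9.98 (SD, n = 3) in MYCN wild-type, 264 ± 15.3 (SD, n = 2) in MYCN het, 233 ± 11.6 (SD, n = 3) in transgene-free het and 273 ± 40.8 (SD, n = 4) in transgene-free wild-type ganglia. In that last group replicate 2 had 327 TPM, and replicates 1, 3 and 4 had 228, 267 and 271 TPM. The make-up differed too. Bcl2 was 2.91 ± 1.06% of the sum in tumors, 11.7 ± 2.49% in MYCN wild-type and 18.8 ± 0.357% in MYCN het ganglia, and Mcl1 was 62.0 ± 4.87% in tumors against 42.6 ± 5.05% in MYCN wild-type ganglia. Mcl1 was the largest of the 3 shares in all 4 tumors, at 55.1% or more. It was also the largest in MYCN wild-type replicates 1 (46.1%) and 4 (44.9%) and in transgene-free wild-type replicate 2 (60.8%). The mean TPM of Mcl1 in tumors differed from that in MYCN wild-type ganglia by less than 1 SD, while both Bcl2 and Bcl2l1 were lower. In TMM CPM its mean was 165 in tumors and 125 in those ganglia. These shares are within a library and are given with no test.

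Of the effectors, which form the pore in the outer mitochondrial membrane, Bax was called higher in tumors and Bak1 was not called. Bax was at 81.8, 120, 107 and 104 TPM in tumors, 82.1, 56.2 and 69.6 TPM in MYCN wild-type, 48.7 and 55.9 TPM in MYCN het, 48.9, 40.9 and 44.2 TPM in transgene-free het and 53.2, 49.5, 48.6 and 55.6 TPM in transgene-free wild-type ganglia. In TPM the lowest tumor and MYCN wild-type replicate 1 were level, whereas on the TMM-scaled CPM values that follow the test's scaling, the tumors (30.9 to 46.3) lay above those ganglia (15.6 to 25.2). The log2 fold change was 0.97 (SE 0.185, edgeR adjusted p = 0.00146) from MYCN wild-type and 1.44 (SE 0.170, edgeR adjusted p = 1.64e-05) from transgene-free wild-type ganglia, and both calls held under every alternative and without each library. Bak1 was at 6.38 to 10.7 TPM in tumors, 10.6 to 18.0 TPM in MYCN wild-type ganglia and 11.3 to 14.9 TPM in transgene-free wild-type ganglia other than replicate 2, which had 37.9 TPM. Its log2 fold change between tumors and transgene-free wild-type ganglia was −0.85 (SE 0.353, edgeR adjusted p = 0.052), and −0.24 (adjusted p = 0.368) without replicate 2, so most of this difference came with that library. Upper-quartile scaling, DESeq2, a term for sex, a stricter filter and limma on TPM called it, with adjusted p from 0.00878 to 0.0498, as did the fits without transgene-free wild-type replicate 1 (0.0224), 3 (0.0449) or 4 (0.0374) or tumor replicate 4 (0.0425).

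The TPM ratio of Bax to Bcl2 brings both differences together. It was 13.7, 29.0, 34.4 and 32.8 in tumors, 4.62, 1.88 and 2.79 in MYCN wild-type ganglia, 0.933 and 1.19 in MYCN het, 1.25, 1.07 and 1.24 in transgene-free het and 1.43, 1.16, 1.12 and 1.23 in transgene-free wild-type ganglia. Every tumor lay above every ganglion, and each MYCN wild-type ganglion lay above the 9 remaining ganglia. MYCN het replicate 1 lay below all transgene-free ganglia and replicate 2 within their range. The ratio of Bax to Bak1 averaged 13.0 over the tumors (SD 4.07, n = 4) and 5.40 over the MYCN wild-type ganglia (SD 2.31, n = 3). A ratio does not depend on the scaling between libraries, and none of these was tested.

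**Figure D2:**
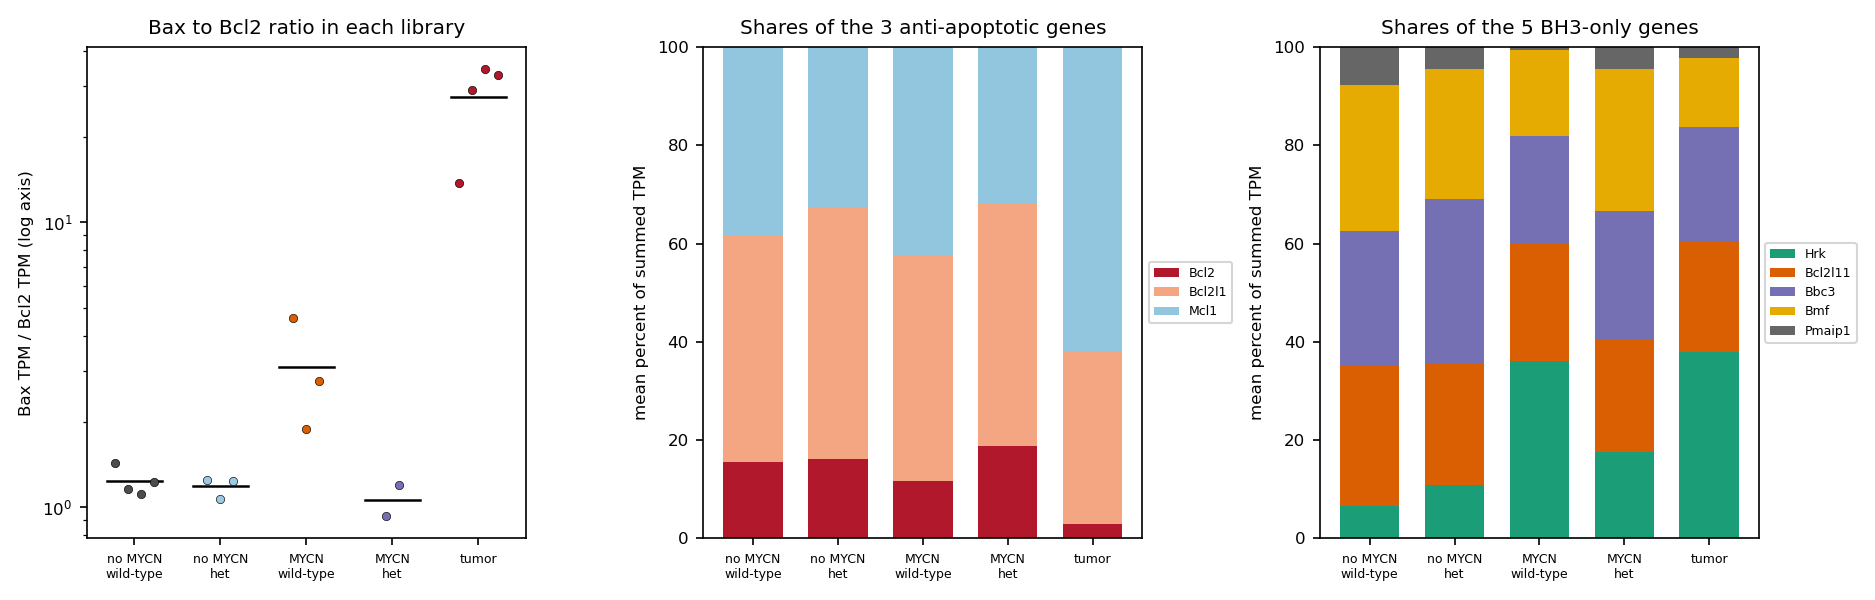
Left, the ratio of Bax TPM to Bcl2 TPM in each library (log axis, lines are group means). Middle and right, the mean percent of the summed TPM taken by each of the 3 anti-apoptotic and the 5 BH3-only genes in each group (stacked bars from 0 to 100). The 4 tumors have ratios of 13.7 to 34.4 and the MYCN wild-type ganglia 1.88 to 4.62, and Hrk takes 38.0% of the BH3-only sum in tumors and 6.54% in transgene-free wild-type ganglia.

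Hrk, a BH3-only protein found mainly in neurons, was the BH3-only gene with the widest range in TPM. It was at 3.49, 0.88, 2.39 and 2.13 TPM in transgene-free wild-type, 3.67, 3.32 and 3.78 TPM in transgene-free het, 44.1, 7.07 and 20.2 TPM in MYCN wild-type, 4.08 and 9.34 TPM in MYCN het ganglia, and 17.6, 20.8, 22.5 and 24.1 TPM in tumors. All tumors and all MYCN wild-type ganglia lay above every transgene-free ganglion, and the MYCN wild-type ganglia spread on both sides of the tumors. In tumors its log2 fold change from transgene-free wild-type ganglia was 3.69 (SE 0.533, edgeR adjusted p = 6.9e-05), and from MYCN wild-type ganglia 0.16 (SE 0.514, edgeR adjusted p = 0.831), a value that ran from −0.29 without MYCN wild-type replicate 3 to 1.10 without replicate 1. The first was called under all alternatives and without each library, and was 3.46 (edgeR adjusted p = 0.000153) without transgene-free wild-type replicate 2, which had the lowest Hrk level.

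Of the other BH3-only genes, only Bbc3 was called by edgeR with all libraries. Bbc3, a target of p53, was at 11.0 to 15.0 TPM in tumors, 10.2 to 13.4 TPM in MYCN wild-type and 7 to 13.1 TPM in transgene-free wild-type ganglia. It was called higher in tumors than in transgene-free wild-type ganglia (log2 fold change 0.81, SE 0.227, edgeR adjusted p = 0.00777). With limma it was not called, at 0.37 on log2(TPM + 1) (adjusted p = 0.125) and 0.40 on log2(TPM + 0.1) (adjusted p = 0.124), and the other alternatives gave adjusted p from 0.000575 to 0.0316. From MYCN wild-type ganglia the log2 fold change was 0.51 (SE 0.246, edgeR adjusted p = 0.122), and 0.64 (adjusted p = 0.0407) with a term for depth.

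Bcl2l11, the BH3-only protein that binds all the anti-apoptotic members, was at 9.78 to 15.6 TPM in tumors and 9.32 to 17.3 TPM in MYCN wild-type ganglia. It was at 20.6 TPM in transgene-free wild-type replicate 2 and at 5.89 to 11.1 TPM in the rest of that group. Its log2 fold change between tumors and transgene-free wild-type ganglia was 0.44 (SE 0.352, edgeR adjusted p = 0.293), and 0.94 with an adjusted p of 0.0119 without replicate 2. Bmf, a BH3-only protein tied to the cytoskeleton, was at 4.22 to 14.0 TPM over all libraries and was called in no comparison. Pmaip1, which preferentially binds Mcl1, had 3 to 126 counts per library and levels of 0.19 to 2.58 TPM, apart from 9.81 TPM in transgene-free wild-type replicate 2. Its log2 fold change between tumors and transgene-free wild-type ganglia was −1.13 (SE 0.847, edgeR adjusted p = 0.266) and 0.27 (adjusted p = 0.77) without that library, a turn of direction. Between tumors and MYCN wild-type ganglia it was 1.90 (SE 0.995, edgeR adjusted p = 0.153).

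**Figure D3:**
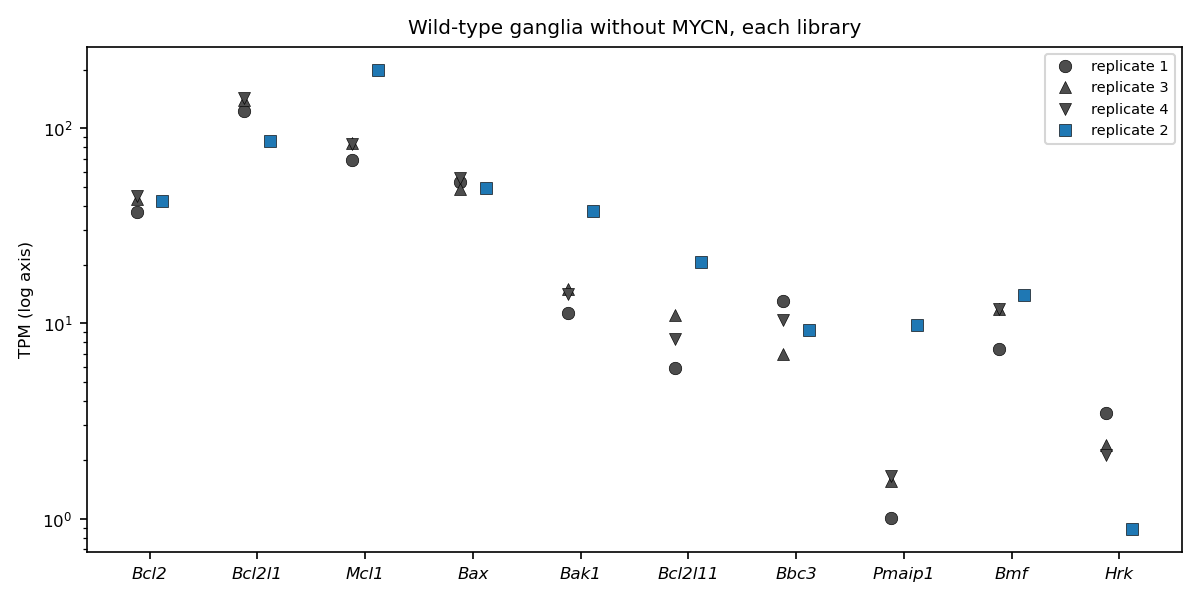
TPM of the 10 genes (log axis) in the 4 transgene-free wild-type ganglia, with replicate 2 as blue squares and the others in grey. Replicate 2 has the highest Mcl1 (199 TPM), Bak1 (37.9 TPM), Bcl2l11 (20.6 TPM), Pmaip1 (9.81 TPM) and Bmf (14.0 TPM) and the lowest Hrk (0.88 TPM) and Bcl2l1 (85.7 TPM).

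Counted together, with edgeR, 1 member was higher (Bax) and 2 were lower (Bcl2 and Bcl2l1) in tumors than in MYCN wild-type ganglia, where 14.0% of all genes tested were called higher and 20.5% lower. From transgene-free wild-type ganglia 3 were higher (Bax, Bbc3 and Hrk) and 2 lower (Bcl2 and Bcl2l1), where 27.0% of all genes were called higher and 30.7% lower. On TMM CPM the groups did not overlap for 4 members in the first comparison, Bbc3 among them, against 39.7% of all genes, and for 5 in the second, against 46.8%. The counts of members are near these shares, so what the data show is which members differed and in which direction, not that the family differed more often than other genes. The median log2 fold change was 0.22 over the members and −0.0077 over all genes from MYCN wild-type ganglia, and −0.0115 and −0.112 from transgene-free wild-type ganglia. Without transgene-free wild-type replicate 2 the last 2 medians were 0.45 and −0.00842. These comparisons share the 4 tumors. On log2(TPM + 1) the medians over all genes were lower, at −0.286 and −0.360, which is the shift to bear in mind where TPM and fitted folds are read side by side.

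**Figure D4:**
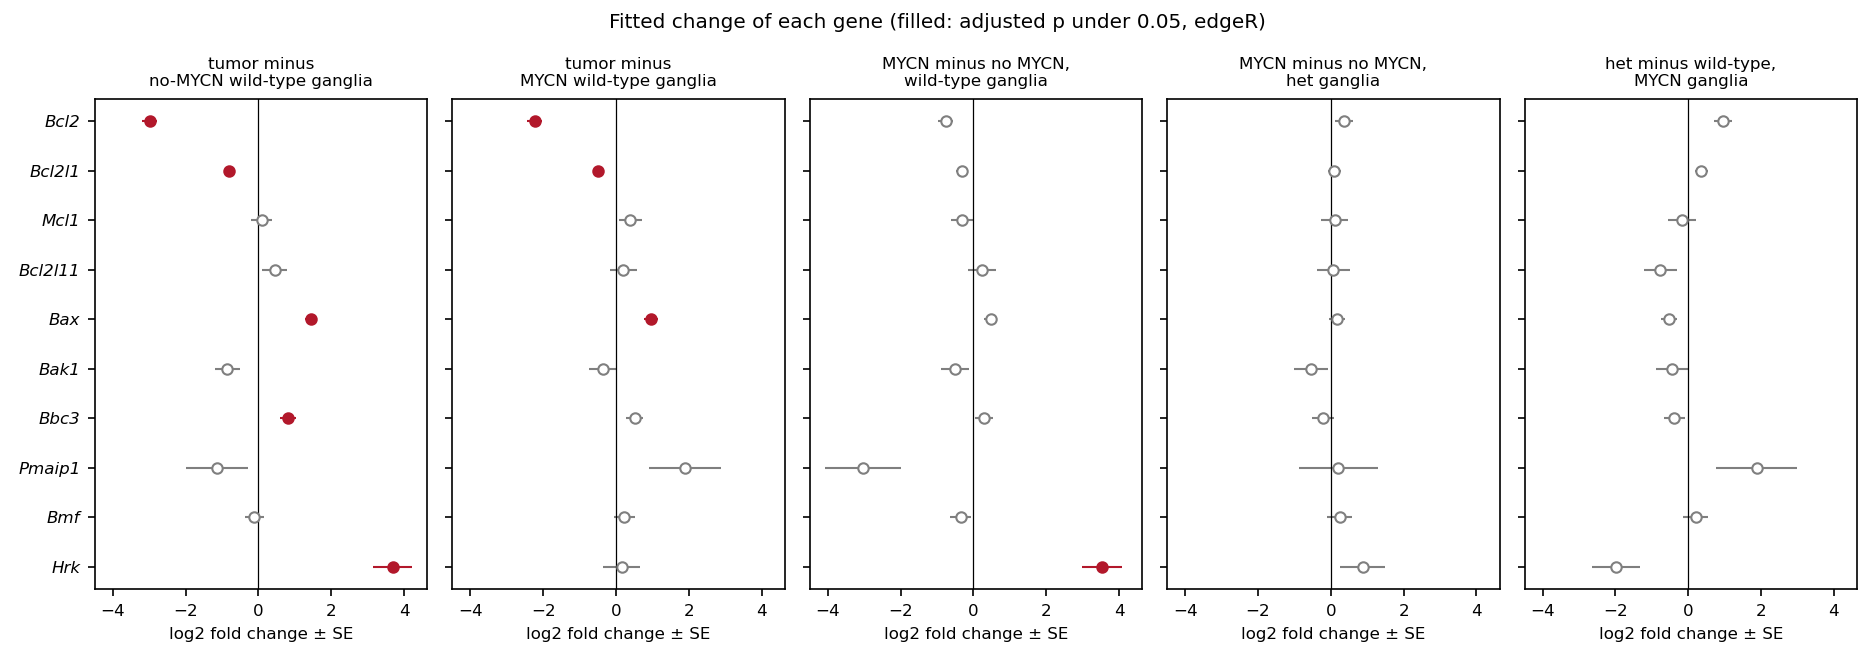
Fitted log2 fold change with its standard error (horizontal axis) for each gene in 5 comparisons; filled red points have an edgeR adjusted p under 0.05. Bcl2 is at −2.99 and −2.23 in the tumor comparisons, −0.76 for MYCN in wild-type ganglia and 0.36 for MYCN in het ganglia.

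The comparison of MYCN with transgene-free ganglia, both with wild-type Runx1t1, asks how the members stood with and without the transgene in 2-week-old mice. Hrk was called, with a log2 fold change of 3.53 (SE 0.546, edgeR adjusted p = 0.0289), and no other member was; 0.936% of all genes tested were called. Bcl2 had −0.76 (SE 0.205, edgeR adjusted p = 0.0808), Bax 0.47 (SE 0.180, adjusted p = 0.175) and Pmaip1 −3.03 (SE 1.04, adjusted p = 0.141), which was −1.65 (adjusted p = 0.272) without transgene-free wild-type replicate 2. The groups did not overlap for these 4 members of 10, Bcl2 and Pmaip1 lower and Bax and Hrk higher in MYCN ganglia, and did not overlap for 9.17% of all genes. With DESeq2, Bcl2 (−0.77, adjusted p = 0.0092) and Pmaip1 (−3.07, adjusted p = 0.0205) were called as well.

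These calls were not stable. Hrk was higher in MYCN wild-type ganglia in every fit, but its edgeR adjusted p ranged from 0.000469 to 0.128 when single libraries were left out, and the call was lost without MYCN wild-type replicate 1 (log2 fold change 2.59, adjusted p = 0.128) or 4 (0.0623), without transgene-free wild-type replicate 1 (0.0775), 3 (0.0816) or 4 (0.122), and without transgene-free het replicate 1 (0.0548) or 4 (0.0509). In a fit of these 7 libraries alone it was 3.54 with an adjusted p of 0.396, while DESeq2 gave 3.36e-08. With a block for replicate number, edgeR called 0 genes in this comparison, so Hrk lost its call there too. Without MYCN wild-type replicate 3, Bcl2 (−0.92, edgeR adjusted p = 0.0208) and Bax (0.62, adjusted p = 0.045) were called beside Hrk.

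The 3 MYCN wild-type ganglia ranked alike over several members, but not over all. Replicate 1 had the highest Hrk (44.1 TPM), Bax (82.1 TPM) and Bcl2l11 (17.3 TPM) and the lowest Bcl2 (17.8 TPM). Replicate 3 had the lowest Hrk (7.07 TPM), Bax (56.2 TPM) and Bcl2l11 (9.32 TPM) and the highest Bcl2 (29.9 TPM). Replicate 4 lay between them for these 4 genes, but had the highest Mcl1 (95.1 TPM) and Bbc3 (13.4 TPM) of the 3. The summed TPM of 5 markers of cycling cells, Mki67, Top2a, Ccnb1, Cdk1 and Pcna, was 907 for replicate 1, 483 for replicate 4 and 93.6 for replicate 3. It was 1070 to 1247 TPM in tumors, 71.8 and 193 TPM in MYCN het ganglia, and 52.7 to 73.3 TPM in transgene-free ganglia other than wild-type replicate 2, which had 250 TPM. In the same order, the sum of the sympathetic neuron markers was 8269, 13001 and 15397 TPM in replicates 1, 4 and 3, and that of the myeloid markers was 246, 138 and 71.7 TPM. The glial markers summed to 475, 1255 and 1815 TPM and the fibroblast markers to 537, 1651 and 1860 TPM in these replicates. The lymphocyte sums, at 4.03, 5.25 and 3.39 TPM, did not follow this order. The part of these markers in the levels of the members was not tested.

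**Figure D5:**
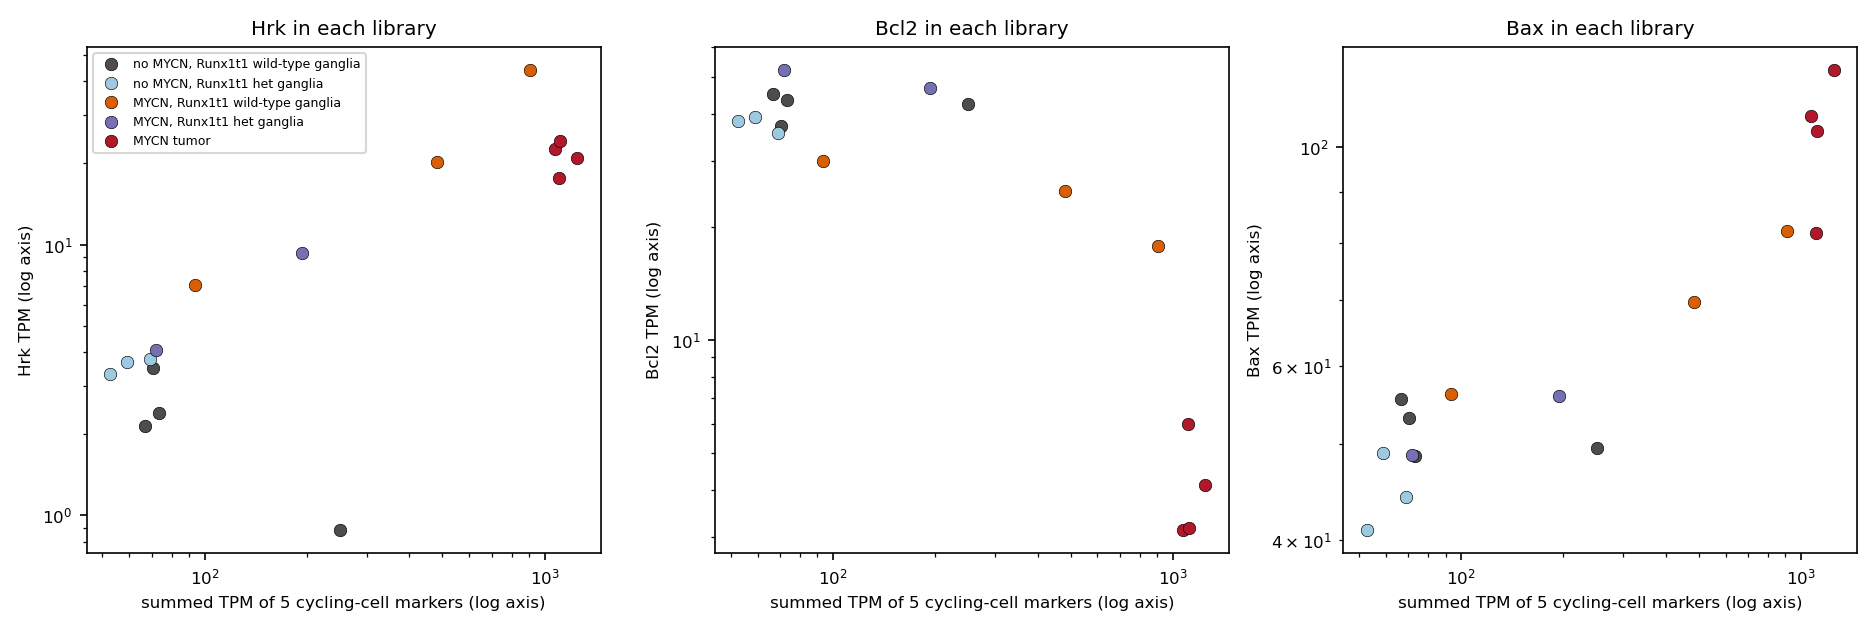
TPM of Hrk, Bcl2 and Bax (vertical log axes) against the summed TPM of 5 cycling-cell markers (horizontal log axis) in the 16 libraries, coloured by group. In the 3 MYCN wild-type ganglia Hrk is 7.07, 20.2 and 44.1 TPM and Bcl2 29.9, 25.0 and 17.8 TPM at marker sums of 93.6, 483 and 907 TPM, and the transgene-free wild-type library at 250 TPM is replicate 2.

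The MYCN het ganglia were compared with the MYCN wild-type ganglia to see how the members stood with 1 Runx1t1 allele. Their Bcl2 levels (52.2 and 46.8 TPM) lay above the 17.8 to 29.9 TPM of the MYCN wild-type ganglia, with a log2 fold change of 0.96 (SE 0.238, unadjusted p = 0.00128, edgeR adjusted p = 0.243). Hrk had −1.98 (SE 0.665, unadjusted p = 0.0101, edgeR adjusted p = 0.318) and Bax −0.54 (SE 0.220, unadjusted p = 0.0282, edgeR adjusted p = 0.367). By edgeR, 0 members and 0.0120% of all genes were called, and 3 members and 2094 of 16665 genes had an unadjusted p under 0.05. DESeq2 called 1 member, Bcl2, with 0.98 and an adjusted p of 0.0162 (its edgeR adjusted p ran up to 0.991 without single libraries), and edgeR without MYCN wild-type replicate 3 called 2 members, Bcl2 (1.12, adjusted p = 0.0462) and Hrk (−2.43, adjusted p = 0.0456), in a fit that called 323 genes in all against 2 with all libraries. On TMM CPM the groups did not overlap for 7 of the 10 members, against 30.5% of all genes. Bcl2, Bcl2l1 and Pmaip1 were higher and Bcl2l11, Bax, Bak1 and Bbc3 lower in MYCN het ganglia. In TPM the ranges of Bcl2l11, Bak1 and Bbc3 overlapped. Both MYCN het libraries held 12367963 and 14221960 counts, and MYCN wild-type replicates 3 and 4 more than 20000000, so depth and label were partly tied. With a term for depth, Bcl2 had 1.05 and Hrk −2.24, both with an edgeR adjusted p of 0.181. The sympathetic neuron markers summed to 19878 and 24121 TPM in MYCN het and 8269 to 15397 TPM in MYCN wild-type ganglia, with no overlap, and the cycling-cell markers to 71.8 and 193 TPM against 93.6 to 907 TPM. The part of these markers in the differences was not tested.

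In het ganglia the comparison with and without the transgene called no member. Bcl2 was at 52.2 and 46.8 TPM with MYCN and 35.6 to 39.2 TPM without it, a log2 fold change of 0.36 (SE 0.239, edgeR adjusted p = 1), and Hrk was at 4.08 and 9.34 TPM against 3.32 to 3.78 TPM, a log2 fold change of 0.87 (SE 0.616, edgeR adjusted p = 1). Of the members, 0 were called by edgeR or by DESeq2 and 0 had an unadjusted p under 0.05, and over all genes edgeR called 0%, with 242 genes at an unadjusted p under 0.05 14 called by DESeq2 and 19 by edgeR in a fit of these 5 libraries alone. The groups did not overlap for Bcl2, Hrk and Bak1, 3 members of 10, against 22.5% of all genes.

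The difference of the MYCN effect between het and wild-type ganglia was tested as an interaction. It was 1.12 for Bcl2 (SE 0.313, unadjusted p = 0.00304, edgeR adjusted p = 0.845), −2.66 for Hrk (SE 0.838, unadjusted p = 0.00688, edgeR adjusted p = 0.845) and 3.24 for Pmaip1 (SE 1.46, unadjusted p = 0.0437, edgeR adjusted p = 0.845). The value for Pmaip1 was 1.85 (adjusted p = 0.719) without transgene-free wild-type replicate 2, and its adjusted p ran from 0.510 to 1.00 over all fits. By edgeR 0 members and 0% of all genes were called, with 3 members and 937 genes at an unadjusted p under 0.05, and DESeq2 called 31 genes and 0 members. The effects in the het and the wild-type ganglia are thus not shown to differ.

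In ganglia without the transgene, the het and wild-type groups overlapped for all members but Bax, which was at 40.9 to 48.9 TPM in het and 48.6 to 55.6 TPM in wild-type ganglia and did not overlap in TMM CPM (11.3 to 13.1 against 13.5 to 15.0). Groups did not overlap for 2.90% of all genes. The log2 fold change of Bax was −0.24 (SE 0.182, edgeR adjusted p = 0.993). By edgeR 0 members and 0% of all genes were called, with 0 members and 687 genes at an unadjusted p under 0.05, and DESeq2 called 5 genes and 0 members.

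The rest of the pathway was read from lists of the other family members, the apoptosome with the caspases and their inhibitors, the death receptors and known regulators. Their counts are to be read against all genes tested, of which 14.0% were higher and 20.5% lower in tumors than in MYCN wild-type ganglia, and 27.0% and 30.7% against transgene-free wild-type ganglia. Nothing particular to a list is read from its count. Of 14 other family genes tested, 3 were higher and 3 lower in tumors than in MYCN wild-type ganglia, with a list median of 0.60. Bid, which links death receptors to mitochondria (log2 fold change 1.24, edgeR adjusted p = 0.0476), Bok, an effector akin to Bax (1.19, adjusted p = 0.0144), and Bcl2l13, a mitochondrial receptor for mitophagy (0.51, adjusted p = 0.00607), were higher. Bcl2l2, the anti-apoptotic Bcl-w (−0.76, adjusted p = 0.0224), Bnip3, a mitophagy receptor induced by hypoxia (−1.24, adjusted p = 0.0093), and Bcl2l15 (−2.26, adjusted p = 0.0457) were lower. From transgene-free wild-type ganglia, Bid, Bok and Bcl2l13 were again higher and Bcl2l2, Bnip3 and Bad lower, with a list median of −0.78 that became 0.28 without transgene-free wild-type replicate 2. Bcl2l2 was at 14.0 to 23.5 TPM in tumors and 28.2 to 52.0 TPM in MYCN wild-type ganglia, so another anti-apoptotic gene was lower in tumors beside Bcl2 and Bcl2l1. The calls against MYCN wild-type ganglia differed in stability. Bcl2l13 was called in all 16 fits that left out a library. Of the same fits, 5 called Bid, 5 Bcl2l15, 13 Bcl2l2, 14 Bok and 15 Bnip3. Without MYCN wild-type replicate 3 the edgeR adjusted p of Bid, Bcl2l15, Bcl2l2, Bok and Bnip3 ran from 0.0616 to 0.189.

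Downstream of the mitochondria, 4 of 21 genes were called between tumors and MYCN wild-type ganglia, all lower in tumors, near the 20.5% of all genes: Diablo, which relieves caspases of their inhibitors (−1.59, edgeR adjusted p = 0.000154), Casp9, the initiator caspase of the apoptosome (−0.87, adjusted p = 0.00269), the caspase inhibitor Xiap (−0.57, adjusted p = 0.00203) and Vdac3 (−0.54, adjusted p = 0.0225). Diablo was at 25.1 to 31.9 TPM in tumors and 71.7 to 154 TPM in these ganglia. Vdac3 was called in 12 of the 16 fits that left out a library, and without transgene-free wild-type replicate 2 this list had 2 genes higher and 5 lower. From transgene-free wild-type ganglia 5 were higher and 7 lower, and 8 and 7 without that library. Birc5 (4.31, and 5.46 without it) and Casp2 (1.63 and 2.17) were among those higher, and Birc3 (−3.44 and −2.19) and Diablo (−1.98 and −2.12) among those lower. Casp8 had −1.76 (edgeR adjusted p = 0.0325), which was −0.34 and not called (adjusted p = 0.473) without that library. Aifm1, a mitochondrial flavoprotein, was called higher in MYCN than in transgene-free wild-type ganglia, at 0.69 (edgeR adjusted p = 0.0485), a call that held in 2 of the 16 fits that left out a library. The list's medians were 0.03 from MYCN wild-type and −0.16 from transgene-free wild-type ganglia, the latter 0.04 without transgene-free wild-type replicate 2.

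Of 7 death receptor genes tested, 1 was called against MYCN wild-type ganglia and 3 against transgene-free wild-type ganglia, all lower in tumors. Without transgene-free wild-type replicate 2 the latter count was 1 higher and 1 lower. Cflar, the inhibitor of Casp8 known as c-FLIP, was lower than in MYCN wild-type ganglia (−1.66, edgeR adjusted p = 0.00193), and Cflar (−2.49, and −2.34 without transgene-free wild-type replicate 2) was lower than in transgene-free wild-type ganglia. Fas (−2.36, edgeR adjusted p = 0.0424) and Tnfrsf1a (−1.31, adjusted p = 0.0339) were called lower with all libraries but not without that library, at −1.62 (adjusted p = 0.143) and −0.79 (adjusted p = 0.154). Among 16 regulators, 2 were higher and 5 lower in tumors than in MYCN wild-type ganglia. Ngfr, the p75 neurotrophin receptor, fell most (−8.05, edgeR adjusted p = 1.62e-06). Foxo1, a transcription factor of Bcl2l11 and Bbc3, had −2.41 and the Jun kinases Mapk10 and Mapk9 had −1.09 and −0.84, while Trp53, which encodes p53, had 1.15 (adjusted p = 0.035) and was called in 11 of the 16 fits that left out a library. From transgene-free wild-type ganglia 5 regulators were higher and 8 lower.

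The genes whose log2 CPM followed the members most closely over the 16 libraries were found by Pearson's r, as a description over points that share groups. Bcl2 was followed by Kitl, which encodes the ligand of Kit (r = 0.998, and 0.961 after group means were subtracted), and by Ngb, neuroglobin (0.991 and 0.740). Bax was followed by Wdr5 (0.990 and 0.934) and Ruvbl2 (0.986 and 0.860), and Hrk by Zfp711 (0.978 and 0.963) and Adcy1 (0.975 and 0.932). Bcl2l1 was followed by Aplp2 (0.957 and 0.835) and Rasal2 (0.955 and 0.835), Mcl1 by Btg1 (0.974 and 0.974) and Cyba (0.955 and 0.945), and Bcl2l11 by Rbl1 (0.948 and 0.940) and Apaf1 (0.943 and 0.907). For Bak1, Bbc3, Pmaip1 and Bmf the highest r was between 0.869 (Bmf and Tmem179b) and 0.920 (Bbc3 and Rem2). By Spearman's rank correlation Kitl again came first for Bcl2 (0.982). For every other member another gene came first, such as Rps21 for Mcl1 (0.965) and Rbm12b2 for Bcl2l11 (0.965). Transgene-free wild-type replicate 2 had the highest Mcl1 and Bcl2l11, and r without this library was not computed.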

How the data were processed

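RNA-Seq libraries of mouse celiac ganglia and tumors were made by the authors with a SMARTer stranded total RNA kit from RNA of high integrity; the labels call the molecule polyA RNA. Alignment by the authors was to mm10 with STAR, with SAMtools for handling and RSEM for quantification. They deposited unnormalized RSEM expected counts and TPM, which RSEM scales to the same sum in each library, for 24411 genes. The headers' Hom was read as homozygous wild-type Runx1t1, since no label gives a homozygous knockout. Groups are called labelled het since the level of Runx1t1 RNA could not check that label. The labels do not say that replicates are separate animals, so p-values measure the spread between these libraries.

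Expected counts were rounded, and 0 columns were left unmapped. R 4.3.3 with edgeR 4.0.16 kept 16665 genes (filterByExpr), scaled by TMM and fitted all 5 groups together by quasi-likelihood, with Benjamini-Hochberg adjustment over all genes tested and a threshold of 0.05. There were 7 comparisons. The standard error of a log2 fold change was computed from the fitted change and its F statistic. Depth was 10692299 to 38618757 counts per library. Alternatives were upper-quartile scaling, DESeq2 1.42.0, no filter or at least 10 counts in every library, a replicate block, a depth term (20000000 counts), a sex term (Ddx3y over 1 CPM), limma 3.58.1 on log2(TPM + 1) and log2(TPM + 0.1), a fit of only the groups compared, and leaving out each library. For pathway genes these were added after seeing the data. The script was tested on simulated counts. At most 0.894% of genes had equal counts in any 2 libraries of a group, so none were taken as duplicates. RSEM shares reads among near copies such as Bcl2a1a, Bcl2a1b and Bcl2a1d, so their values are uncertain.

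All members are named, and pathway genes come from 4 lists, at most 6 per list and comparison by size of change among those called; some genes under that rule are not reported here. The 2 genes most like a member needed a mean CPM of at least 1. The lists of pathway genes were 15 other family members, 21 apoptosome genes, 8 death receptor genes and 16 regulators. Members and lists were chosen with earlier results of these data known. Promoter windows are those of RefSeq (GRCm38.p6), searched on both strands with Python 3.11.15; one member's window was not used here.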

Additional observations from a re-analysis of the deposited data

Results flagged for a closer look

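In the transgene-free wild-type ganglia, the group of 4 ganglia, some libraries stood far from the other 3 by Dixon's criterion. Replicate 2 was far above the others for Mcl1 (298 TMM CPM), Bak1 (30.9 TMM CPM) and Pmaip1 (10.9 TMM CPM), and this library also held the lymphocyte markers. Replicate 1 was below the others for Bcl2 (105 TMM CPM), with a gap of 0.833 of the range. There were 4 such cases among 20 groups of values tested, and chance gives about 1 in 20.

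Every MYCN wild-type ganglion had less Bcl2 than every transgene-free wild-type ganglion, whereas both MYCN het ganglia had more than every transgene-free het ganglion. The tested difference of these effects was 1.12 on the log2 scale with an edgeR adjusted p of 0.845.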

How the results depend on the processing

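No called change of a member turned its direction under any alternative. In tumors against MYCN wild-type ganglia 2 to 4 members were called when single libraries were left out, and against transgene-free wild-type ganglia 5 to 7 (7 without transgene-free wild-type replicate 2). For MYCN against transgene-free wild-type ganglia the 1 member called became 3 members with DESeq2, 0 members with the replicate block and 0 members in a fit of only the groups compared, and ranged from 0 to 3 members (3 without MYCN wild-type replicate 3) when single libraries were left out. For MYCN het against MYCN wild-type ganglia the 0 members called became 1 member with DESeq2 and ranged from 0 to 2 members without single libraries (2 without MYCN wild-type replicate 3). The cause of these shifts was not tested, beyond the fewer samples of the smaller fits. In the 3 other comparisons 0 members were called under every alternative.

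Over all genes, the 156 genes called for MYCN in wild-type ganglia were 1285 genes with DESeq2, 0 genes with the replicate block or with only the groups compared, 308 genes with the depth term, 50 genes with the sex term, 16 and 15 genes with limma, 238 genes with upper-quartile scaling, and 0 to 1811 genes when single libraries were left out. The 2 genes called for MYCN het against MYCN wild-type ganglia were 264 genes with DESeq2 and 323 genes without MYCN wild-type replicate 3, and 14, 5 and 31 genes were called by DESeq2 where edgeR called 0 genes with all groups in the fit; for MYCN against transgene-free het ganglia, edgeR called 19 genes in the fit of only the groups compared. For tumors against MYCN wild-type ganglia, 5755 genes were called, and 3555 to 6753 genes without single libraries.

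Same-numbered libraries of different groups had correlations of their deviations between −0.315 and 0.319 (median −0.0143, 7 of 25 pairs over 0.1). Other-numbered libraries of different groups had −0.324 to 0.324 (median −0.0213, 16 of 76 pairs over 0.1). Number was tied to depth in ganglia: replicates 1 and 2 held 10692299 to 14221960 counts, and replicates 3 and 4 held 24873952 to 36337191. Pairs of other numbers include libraries of like depth, so these correlations cannot decide whether the numbers mark shared handling. Under the replicate block, Bcl2l1 in tumors against MYCN wild-type ganglia (−0.41, edgeR adjusted p = 0.0612) and Hrk for MYCN in wild-type ganglia (3.38, edgeR adjusted p = 0.0736) lost their calls. Depth limits the precision of low genes such as Pmaip1, with 3 to 126 counts per library.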
